A study of Homo sapiens with 14 samples.

Results

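The 7 genes described here encode caspases, inhibitor of apoptosis proteins (IAPs) and adaptors of the death receptors and of the apoptosome. They were chosen by name, CASP8, CASP9, APAF1, XIAP, BIRC2, CFLAR and FADD, from a count table of 58037 gene IDs, and all 7 were found in it. RNA was sequenced from OCI-AML2, an established human acute myeloid leukaemia cell line, in 14 libraries. Cells of mutant lines F3 and G7, which carry the stop change R174* in RUNX1 beside a wild-type copy, received 100 nM homoharringtonine (HHT), an inhibitor of translation elongation, for 8 h in 4 libraries. The same lines received the control treatment in 4 libraries, dated to 8 h in the treatment label and to 0 h in the description. Each of these groups held 2 libraries of G7 and 2 of F3. Unedited parent cells, wild type for RUNX1, gave 2 untreated total RNA libraries. RiboLace, a pull-down of active ribosomes with a puromycin analogue, gave 2 libraries of untreated mutant cells, both of line F3, and 2 of untreated wild-type cells. The labels do not say whether F3 and G7 are single clones or whether replicates were separate cultures, so p-values measure only the spread between these libraries.

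Death receptors of the TNF family recruit the adaptor FADD, which brings in CASP8, the initiator caspase of that route. CFLAR (c-FLIP), a catalytically inactive relative of CASP8, competes with it for the same complex. In the mitochondrial route, APAF1 binds cytochrome c and assembles the apoptosome, on which CASP9 becomes active. XIAP inhibits caspases directly, CASP9 among them, and BIRC2 (cIAP1) is a ubiquitin ligase of TNF receptor complexes. The balance of these proteins is known to bear on how readily leukaemia cells die after drug treatment.

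In GRCh38 with GENCODE annotation, 3 of the genes act at the death receptor. FADD (ENSG00000168040.4) spans chr11:70203163-70207390 on the + strand. CASP8 (ENSG00000064012.21) spans chr2:201233443-201287711 and CFLAR (ENSG00000003402.19) spans chr2:201116104-201176687, both on the + strand. They lie 56755 bp apart with CASP10 between them, which begins 6193 bp after CFLAR and ends 4036 bp before CASP8. APAF1 (ENSG00000120868.13) spans chr12:98645141-98735433 on the + strand, and CASP9 (ENSG00000132906.17) spans chr1:15490832-15526534 on the - strand. XIAP (ENSG00000101966.12) spans chrX:123859724-123913979 and BIRC2 (ENSG00000110330.8) spans chr11:102347211-102378670, both on the + strand, with the related BIRC3 ending 7807 bp before BIRC2. An antisense gene, AP000879.1, covers 54.9% of the FADD exons, 1011 bp, and had a median of 0 reads in the total RNA libraries. The strand setting of the counting is not given in the sources used here. Reads of FADD and of its antisense partner therefore cannot be told apart. The other overlaps of exons covered at most 9.48% of a gene's exons, with partner genes at a median of at most 1 read. The 3 annotated XIAP pseudogenes held 0, 1 and 4 reads over all 14 libraries.

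RefSeq promoter windows of GRCh38.p14, which run from 250 bases before to 50 after an annotated start, were found for all 7 genes, 16 windows in all. The 3 printed here belong to the genes on which the results below turn. CFLAR is shown because it alone of the 7 held TGTGGT or ACCACA, and the mutated gene is RUNX1. These letters are a form of the core bound by RUNX factors. They stood in 1 of the 16 windows, that of CFLAR at chr2:201118466-201118765, + strand, and in 13.1% of all 35116 windows. Their first base lies 58 bases before the CFLAR start (capitals). Other forms of that core, such as TGCGGT or ACCGCA, were not searched. ACCGCA stands in the BIRC2 and FADD windows printed below, so the match does not set CFLAR apart.

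CFLAR: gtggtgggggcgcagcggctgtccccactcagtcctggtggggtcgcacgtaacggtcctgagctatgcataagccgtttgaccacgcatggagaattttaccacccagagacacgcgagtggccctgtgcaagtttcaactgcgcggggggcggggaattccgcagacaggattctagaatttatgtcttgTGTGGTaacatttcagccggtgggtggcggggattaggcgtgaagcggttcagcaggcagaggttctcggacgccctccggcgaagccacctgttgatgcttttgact

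BIRC2 is shown because it had the smallest adjusted p of the 7 after HHT. It alone held the cyclic AMP response element TGACGTCA (capitals), which reads the same on both strands, in overlapping windows that share the site. The window printed lies at chr11:102346964-102347263, + strand, with the element beginning 7 bases before the start, and 1.85% of all windows held it.

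BIRC2: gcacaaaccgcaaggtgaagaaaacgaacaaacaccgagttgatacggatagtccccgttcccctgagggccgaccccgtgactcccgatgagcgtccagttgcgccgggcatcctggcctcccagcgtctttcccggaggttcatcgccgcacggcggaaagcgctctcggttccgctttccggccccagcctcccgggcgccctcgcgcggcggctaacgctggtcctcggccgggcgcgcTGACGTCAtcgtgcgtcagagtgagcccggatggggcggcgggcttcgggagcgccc

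FADD is shown because it was the member whose HHT response differed between the lines. Its window at chr11:70203046-70203345, + strand, held the GC box GGGCGG, or CCGCCC on the other strand, in 2 places (capitals), 209 and 77 bases before the start. The GC box was present in at least 1 window of each of the 7 genes, in 11 of the 16 windows and in 45% of all windows.

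FADD: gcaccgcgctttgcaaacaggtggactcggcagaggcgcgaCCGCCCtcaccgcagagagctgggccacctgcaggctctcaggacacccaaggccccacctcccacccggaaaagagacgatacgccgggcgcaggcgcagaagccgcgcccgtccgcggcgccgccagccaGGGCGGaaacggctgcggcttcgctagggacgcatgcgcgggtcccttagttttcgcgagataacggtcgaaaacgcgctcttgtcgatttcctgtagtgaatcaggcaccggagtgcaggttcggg

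The AP-1 letters TGANTCA, which read the same on both strands, stood in 4 of the 16 windows, those of CASP8, CFLAR and FADD, and in 7.71% of all windows. No match of 1 motif overlapped a match of another in these windows. These motifs were chosen after values had been seen, and a match is a description of letters, not a binding site.

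Total RNA libraries held 19250789 to 21925693 counted reads and RiboLace libraries 465052 to 2034796. Behind the values below stood 73 to 2646 reads per gene and library in total RNA, and 4 to 99 in RiboLace. Of 10 myeloid markers, 8 had at least 10 reads in every total RNA library, with KIT at 0 after HHT and CD68 at 0 in wild-type cells. Levels are in CPM, a gene's reads as a share of its library on the usual CPM scale, with TMM factors set within each assay. The summed level of the 10 was 1097 to 1449 CPM after HHT, 1130 to 1460 CPM in mutant controls and 1452 to 1564 CPM in wild-type cells. Single markers moved within these sums. CD33, CEBPA, MPO, CSF1R and CSF3R were lower, and SPI1 higher, in every HHT library than in every control. PTPRC and LYZ overlapped, and 66.8% of all genes tested had no overlap. MPO was at 15.75 to 19.45 CPM after HHT, against 41.3 to 81.2 CPM in controls. In RiboLace it was 893 to 1016 CPM in mutant cells and 1493 to 1932 CPM in wild-type cells. The summed T cell list was 3.54 to 7.66 CPM after HHT and 0.593 to 1.80 CPM in controls, with CD3E, CD3G and CD2 at 0 in both groups. The summed B cell list was 9.23 to 10.9 CPM after HHT and 15.2 to 17.6 CPM in controls, and the erythroid list was at most 0.0514 CPM in every library. The summed megakaryocyte list, with PF4 and PPBP at 0, was 6.99 to 29.3 CPM in mutant controls and 4.65 to 5.83 CPM in wild-type total RNA. The summed fibroblast list, with COL1A2 and COL3A1 at 0, was 16.25 to 23.3 CPM in mutant RiboLace and 6.43 to 11.4 CPM in wild-type RiboLace, and at most 0.323 CPM in total RNA. The epithelial list was at most 2.115 CPM. The part of these lists in the results was not tested. A gene count does not read the R174* allele, so the levels do not check the genotype.

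HHT addressed the question of what an inhibitor of translation does to RUNX1-mutant leukaemia cells. All 7 genes were higher in HHT-treated than in control-treated mutant cells by edgeR's quasi-likelihood test at an adjusted p under 0.05, with line as a covariate. Of the 13621 genes tested, 79.2% passed in either direction and 39.9% passed as higher. The median log2 fold change of the 7 was 0.73, beside -0.0018 over all genes tested. Scaled by library totals alone, the median of all genes moved by 0.23 and 61.9% of all calls were higher, in place of 50.4%, and all 7 genes were still called higher, beside 49.1% of all genes. BIRC2 rose 2.13-fold, CFLAR 1.82-fold, XIAP 1.65-fold and CASP8 1.46-fold, and in each of these 4 genes every HHT library lay above every control library, as for 66.8% of the genes tested. APAF1, CASP9 and FADD also passed, but each of those calls was lost under at least 1 alternative given below. CPM are shares of a library, so neither a change in RNA per cell nor one in the mix of cells can be told apart from a change in a gene's own level. HHT and time in culture also cannot be told apart, since the controls are dated to 0 h in 1 label and to 8 h in another.

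At the death receptor, CASP8 was at 35.9 and 40.01 CPM in G7 and 40.9 and 41.1 CPM in F3 after HHT, against 26.14 and 29.4 CPM in G7 and 26.15 CPM in both F3 libraries of the controls. All 4 HHT libraries stood above all 4 controls, and the lines lay close together within each treatment. The log2 fold change was 0.54 ± 0.073 (SE, n = 4 each, edgeR adjusted p = 9.15e-06). CFLAR was at 113.0 and 108.9 CPM in G7 and 74.4 and 75.4 CPM in F3 after HHT, against 55.8 and 51.2 CPM in G7 and 49.1 and 44.3 CPM in F3 controls. The HHT libraries again lay above all controls, and within the HHT group the G7 pair lay above the F3 pair. Its log2 fold change was 0.86 ± 0.084 (SE, edgeR adjusted p = 3.36e-07). FADD averaged 17.5 ± 12.1 CPM after HHT and 7.05 ± 3.11 CPM in controls (SD, n = 4 each), a log2 fold change of 1.07 ± 0.37 (SE, edgeR adjusted p = 0.0163). Its groups overlapped, with the G7 libraries after HHT below those of F3 and within the range of the controls. The FADD call was lost without control replicate 1 (log2 0.76, adjusted p = 0.104), without control replicate 2 (0.76, 0.118) and in DESeq2 (0.97, 0.107), and without control replicate 3 the value was 1.70.

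**Figure D1:**
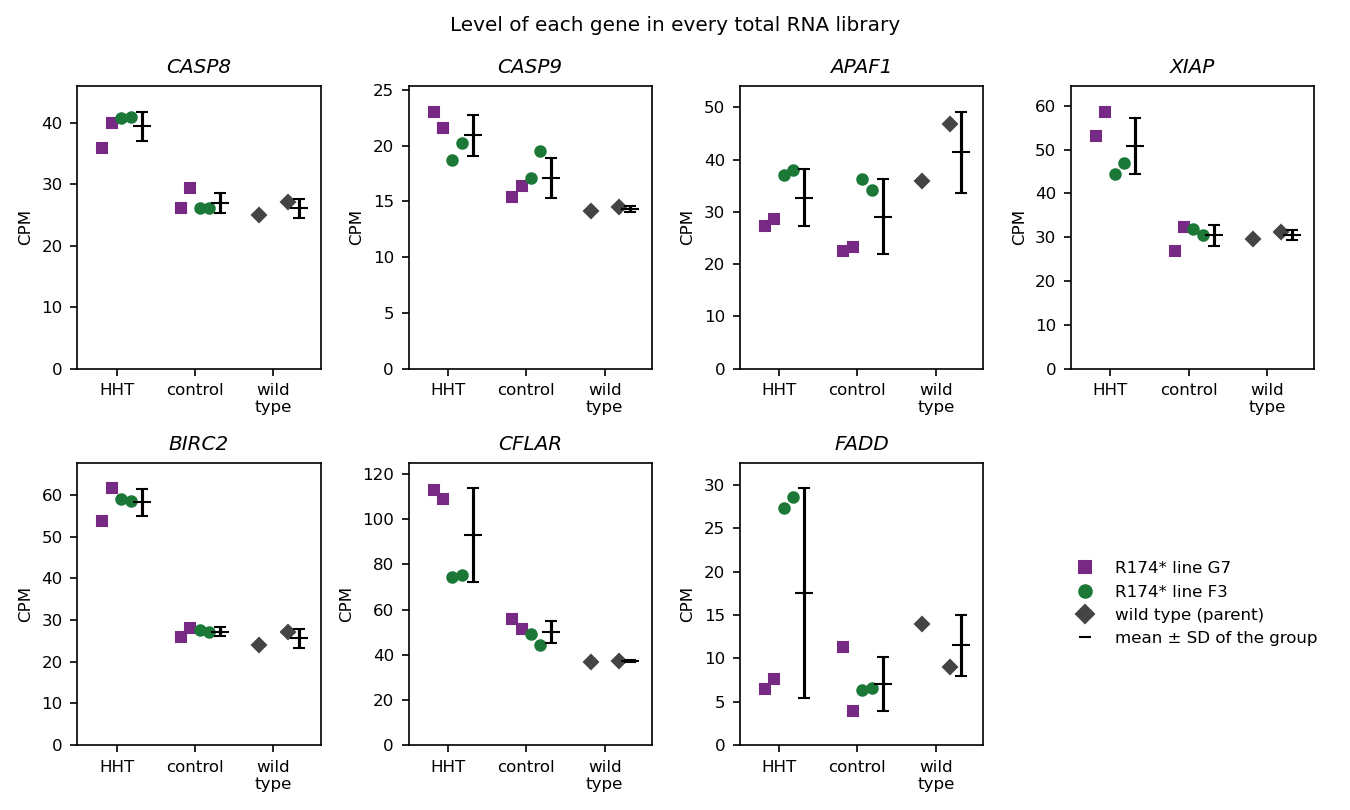
Level of each of the 7 genes in every total RNA library, in CPM (linear axis from 0), for HHT-treated mutant, control-treated mutant and wild-type cells. Points are libraries coloured by line and the black mark is the mean ± SD of the group. The HHT libraries of CASP8, XIAP, BIRC2 and CFLAR all lie above the controls, and FADD is high only in the 2 F3 libraries after HHT, at 27.3 and 28.6 CPM.

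Of the apoptosome genes, APAF1 was at 27.3 and 28.7 CPM in G7 and 37.0 and 38.0 CPM in F3 after HHT, against 22.5 and 23.3 CPM in G7 and 36.3 and 34.2 CPM in F3 controls. The groups overlapped, and every F3 library lay above every G7 library of either treatment. The log2 fold change was 0.18 ± 0.073 (SE, n = 4 each, edgeR adjusted p = 0.0367). That call was lost with RLE size factors (adjusted p = 0.062), in DESeq2 (0.087), among protein-coding genes only (0.0749), and without control replicates 2, 3 or 4 or HHT replicates 3 or 4 (edgeR adjusted p of 0.059 to 0.18). CASP9 was at 23.0 and 21.6 CPM in G7 and 18.8 and 20.3 CPM in F3 after HHT, against 15.4 and 16.4 CPM in G7 and 17.1 and 19.5 CPM in F3 controls. Only the lower F3 library after HHT lay below the highest control. Its log2 fold change was 0.28 ± 0.099 (SE, edgeR adjusted p = 0.0169), and the call was lost without control replicate 1 (0.0513), 3 (0.112) or 4 (0.0833) and without HHT replicate 3 (0.0506).

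Of the IAPs, XIAP was at 53.0 and 58.7 CPM in G7 and 44.5 and 46.8 CPM in F3 after HHT, against 26.9 and 32.2 CPM in G7 and 31.95 and 30.6 CPM in F3 controls. The groups did not overlap, and its log2 fold change was 0.73 ± 0.092 (SE, n = 4 each, edgeR adjusted p = 5.06e-06). BIRC2 was at 53.9 and 61.7 CPM in G7 and 59.1 and 58.6 CPM in F3 after HHT, against 25.8 and 28.2 CPM in G7 and 27.7 and 27.2 CPM in F3 controls. The lowest HHT library was far above the highest control, and the lines lay together. Its log2 fold change was 1.09 ± 0.068 (SE, edgeR adjusted p = 3.12e-09).

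GC content moved with the HHT effect. Genes with a longest coding transcript of up to 40% GC had a median log2 difference between HHT and control of 0.43 in G7 and 0.44 in F3, and those of 65% to 70% GC had -0.37 in G7 and -0.25 in F3. The 18 genes above 70% GC were at -0.59 in G7 and 0.064 in F3. The GC content of the transcripts was 38.1% for BIRC2, 39.0% for XIAP, 41.7% for APAF1, 42.6% for CASP8, 44.1% for CFLAR, 52.8% for CASP9 and 58.6% for FADD. With each library's trend along GC content and length removed, the log2 fold change was 0.69 for BIRC2 (adjusted p = 4.71e-08), 0.72 for CFLAR (2.1e-07), 0.36 for XIAP (0.000366) and 0.33 for CASP8 (0.000155) in edgeR. CASP9 was then at 0.37 (0.00271) and FADD at 1.29 (0.00642), whereas APAF1 was at -0.064 and not called (0.299). With the trend removed, 6 of the 7 genes were called higher, beside 40.8% of all genes tested.

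The lines differed most in FADD. In line G7 it was at 6.43 and 7.62 CPM after HHT, against 11.3 and 3.87 CPM in its controls, and in line F3 it was at 27.3 and 28.6 CPM after HHT, against 6.38 and 6.63 CPM. The F3 libraries of each treatment lay close together and far from those of the other treatment, while the G7 control libraries lay to either side of the G7 HHT libraries. Within G7 alone the log2 fold change was -0.098 ± 0.34 (SE, n = 2 each, edgeR adjusted p = 0.809), and within F3 alone it was 2.07 ± 0.10 (SE, n = 2 each, edgeR adjusted p = 3.02e-09). The difference of the responses, G7 minus F3, was -2.19 ± 0.39 on the log2 scale (SE, edgeR adjusted p = 0.00478), and 3.8% of the 14435 genes tested differed between the lines at that threshold. It was -2.104 (0.00235) with the GC and length trend removed, -2.18 and not called in DESeq2 (0.0564), -2.13 and not called without control replicate 1 (0.0726), and -1.19 without control replicate 3 (0.00462). The G7 controls differed from each other by -1.34 on the log2 scale (replicate 4 minus 3), and of 10155 genes with a mean of at least 5 CPM, 1 had a gap at least as large, FADD itself.

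For the other 6 genes the difference between the lines did not pass in the test with line as a covariate. CASP9 had a response 0.42 ± 0.15 higher in G7 (SE, edgeR adjusted p = 0.147), CFLAR 0.39 ± 0.12 (0.0834) and XIAP 0.39 ± 0.14 (0.142). A block by the replicate number of the titles assumes that same-numbered HHT and control libraries are pairs, which the labels do not settle. With it these 3 genes passed as well, with edgeR adjusted p of 0.0234 for CASP9, 0.00114 for CFLAR and 0.00494 for XIAP. The number of members called was then 4 in place of 1. The block also raised the share of all genes called to 14.9%, in place of 3.8%. With the block and the trend removed together CASP9 (0.0305) and CFLAR (0.0232) passed beside FADD, and XIAP did not (0.0528), where 16.9% of genes passed. CFLAR also passed without control replicate 3 (0.49, 0.0215), and XIAP without control replicate 4 (0.57, 0.0116). For APAF1 the difference was 0.22 (95% interval -0.024 to 0.47), for CASP8 -0.17 (-0.43 to 0.085) and for BIRC2 0.018 (-0.24 to 0.27), and these intervals do not show equal responses. Within single lines 6 of 7 genes were called higher in G7, where 35.5% of genes were called higher and 69.5% in either direction. In F3 it was 5 of 7, where 38.9% of genes were called higher and 77.4% in either direction.

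**Figure D2:**
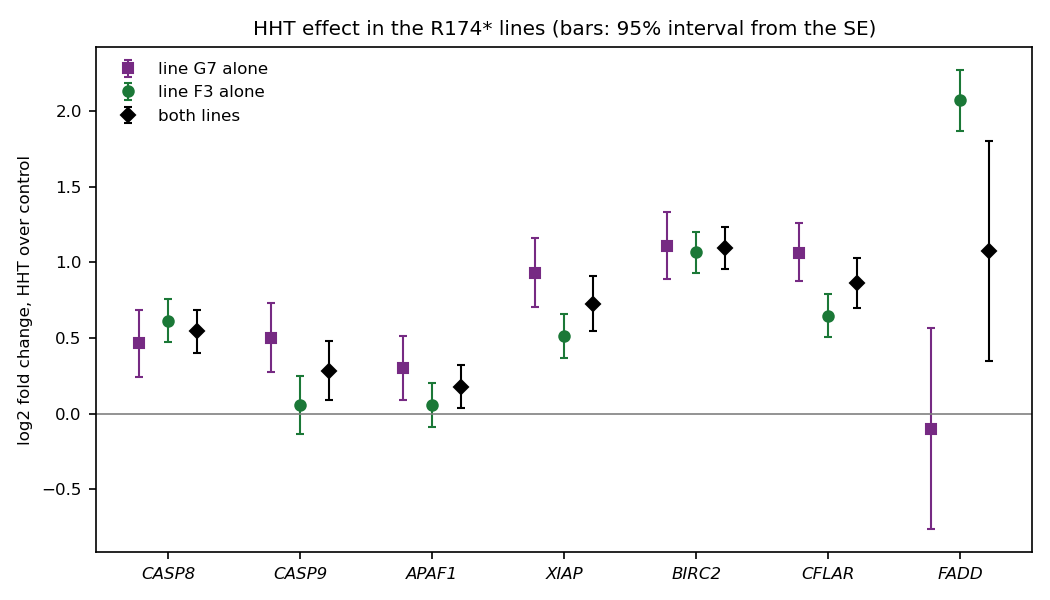
Log2 fold change of each gene, HHT over control, in line G7 alone, in line F3 alone and in both lines with line as a covariate. Bars are 95% intervals from the standard error by a normal approximation, and the grey line is no change. BIRC2 lies near 1.1 in all 3 fits, while FADD is at -0.098 in G7 and 2.07 in F3.

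RUNX1 R174* was set against wild type in total RNA by comparing the 4 control-treated mutant libraries with the 2 wild-type ones. None of the 7 genes passed in edgeR, where 4.56% of the 13949 genes tested did. At an unadjusted p under 0.05 there were 2, APAF1 and CFLAR, beside 21.9% of all genes, and DESeq2 called 1, CFLAR, beside 7.96% of all genes. Genotype cannot be told apart from the control treatment, since the mutant libraries are labelled as treated controls and the wild-type ones as untreated.

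CFLAR was at 55.8 and 51.2 CPM in G7 and 49.1 and 44.3 CPM in F3, against 36.95 and 37.45 CPM in wild-type cells. Every mutant library lay above both wild-type libraries, as it did for CASP9, and 32.8% of the genes tested had groups that did not overlap. Its log2 difference was 0.42 ± 0.12 (SE, n = 4 and 2, edgeR adjusted p = 0.075), and DESeq2 gave 0.42 with an adjusted p of 0.0343. With the GC and length trend removed it was 0.27 in edgeR (adjusted p = 0.145). APAF1 was at 22.5 and 23.3 CPM in G7 and 36.3 and 34.2 CPM in F3, against 35.9 and 46.9 CPM in wild-type cells. The G7 pair was low and the F3 pair lay near the lower wild-type library, and over both lines the log2 difference was -0.52 ± 0.21 (SE, edgeR adjusted p = 0.185).

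FADD was at 11.3 and 3.87 CPM in G7 and 6.38 and 6.63 CPM in F3, against 14.0 and 9.001 CPM in wild-type cells. The groups overlapped through the G7 library of 11.3 CPM, and the log2 difference was -0.71 ± 0.35 (SE, edgeR adjusted p = 0.269). CASP9 was at 15.4 and 16.4 CPM in G7 and 17.1 and 19.5 CPM in F3, against 14.1 and 14.5 CPM in wild-type cells, a log2 difference of 0.25 ± 0.13 (SE, edgeR adjusted p = 0.321). The remaining differences were near 0, with 95% intervals of -0.18 to 0.25 for CASP8, -0.23 to 0.21 for XIAP and -0.13 to 0.29 for BIRC2.

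When each line was set against wild type in one fit of all 6 libraries, line G7 had 2 of the 7 genes called, where 17.7% of genes were. APAF1 fell in G7 by 0.86 ± 0.13 on the log2 scale (SE, edgeR adjusted p = 0.000161), and CFLAR rose by 0.51 ± 0.11 (0.00378). Line F3 had none, where 18.1% of genes were called, with 3 at an unadjusted p under 0.05 (CASP9, CFLAR and FADD), as for 31.4% of all genes, and none in DESeq2, which called 15.1% of all genes. In F3 the log2 difference was 0.32 ± 0.11 for CFLAR (edgeR adjusted p = 0.0585) and -0.82 ± 0.32 for FADD (0.0819). Some calls in F3 turned on 1 library: CFLAR passed without control replicate 3 (0.0371) or 4 (0.0423) of G7, whose spread enters the fit, FADD without those (0.000103 and 0.000628) or wild-type replicate 2 (0.000504), and APAF1 without wild-type replicate 1 (-0.42, 0.0314). Between the lines themselves, G7 against F3, 12.5% of genes were called, and of the 7 only APAF1 was, at -0.62 ± 0.13 (edgeR adjusted p = 0.00408). FADD in G7 against F3 turned with the G7 control library used, at -0.75 without control replicate 3 (edgeR adjusted p = 0.0307) and 0.80 without replicate 4 (0.0088). Without replicate 3, the log2 difference of FADD between G7 and wild type was -1.57 (edgeR adjusted p = 6.64e-08), and without wild-type replicate 2 it was -0.89 (0.00488).

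**Figure D3:**
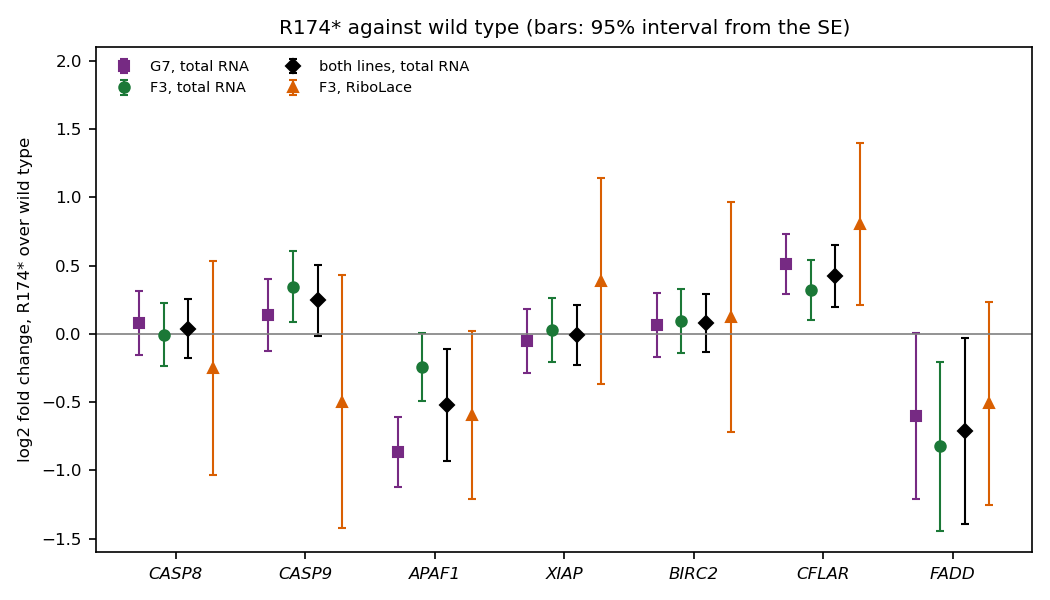
Log2 difference of each gene, R174* over wild type, in total RNA for line G7, line F3 and both lines, and in RiboLace for line F3. Bars are 95% intervals from the standard error by a normal approximation, and some leave out 0 where the edgeR test did not pass. The grey line is no difference. CFLAR is above 0 in all 4 comparisons, from 0.32 in F3 total RNA to 0.81 in RiboLace, and APAF1 is lowest in G7 at -0.86.

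RiboLace libraries read the RNA held on active ribosomes, here in line F3 and wild-type cells without treatment. None of the 7 genes passed between the genotypes in edgeR, where 11.8% of the 9805 genes tested did, and DESeq2, which called 4.23% of genes, also called none of the 7. At an unadjusted p under 0.05 there was 1, CFLAR, beside 27.4% of all genes. Its level was 66.7 and 69.8 CPM in mutant cells (78 and 33 reads), against 43.4 and 33.2 CPM in wild-type cells (81 and 35 reads). The mutant libraries both lay above the wild-type ones, a log2 difference of 0.81 ± 0.30 (SE, n = 2 each, edgeR adjusted p = 0.0756). With the GC and length trend removed that difference was 0.20 (0.697).

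APAF1 on ribosomes was at 37.6 and 42.3 CPM in mutant cells, against 53.05 and 67.4 CPM in wild-type cells. Its groups did not overlap either, and 57.9% of the genes tested had no overlap. The log2 difference was -0.60 ± 0.31 (SE, n = 2 each, edgeR adjusted p = 0.217), and with the trend removed it was -0.94 and passed (0.0399). FADD was at 18.8 and 25.4 CPM in mutant cells, against 24.65 and 37.0 CPM in wild-type cells, and XIAP at 26.5 and 33.8 CPM, against 15.5 and 31.3 CPM. Both genes overlapped between the genotypes. CASP8 was at 16.25 and 27.5 CPM in mutant cells and 21.4 and 27.5 CPM in wild-type cells, and CASP9 at 15.4 and 8.46 CPM in mutant cells and 15.0 and 22.8 CPM in wild-type cells. BIRC2 was at 24.8 and 10.6 CPM in mutant cells, against 18.8 and 17.1 CPM in wild-type cells. The second mutant library rested on 4 reads for CASP9 and 5 for BIRC2, and the 95% interval of the log2 difference was -1.42 to 0.43 for CASP9 and -0.72 to 0.97 for BIRC2. Over the 7 genes these intervals together ran from -1.42 to 1.40.

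**Figure D4:**
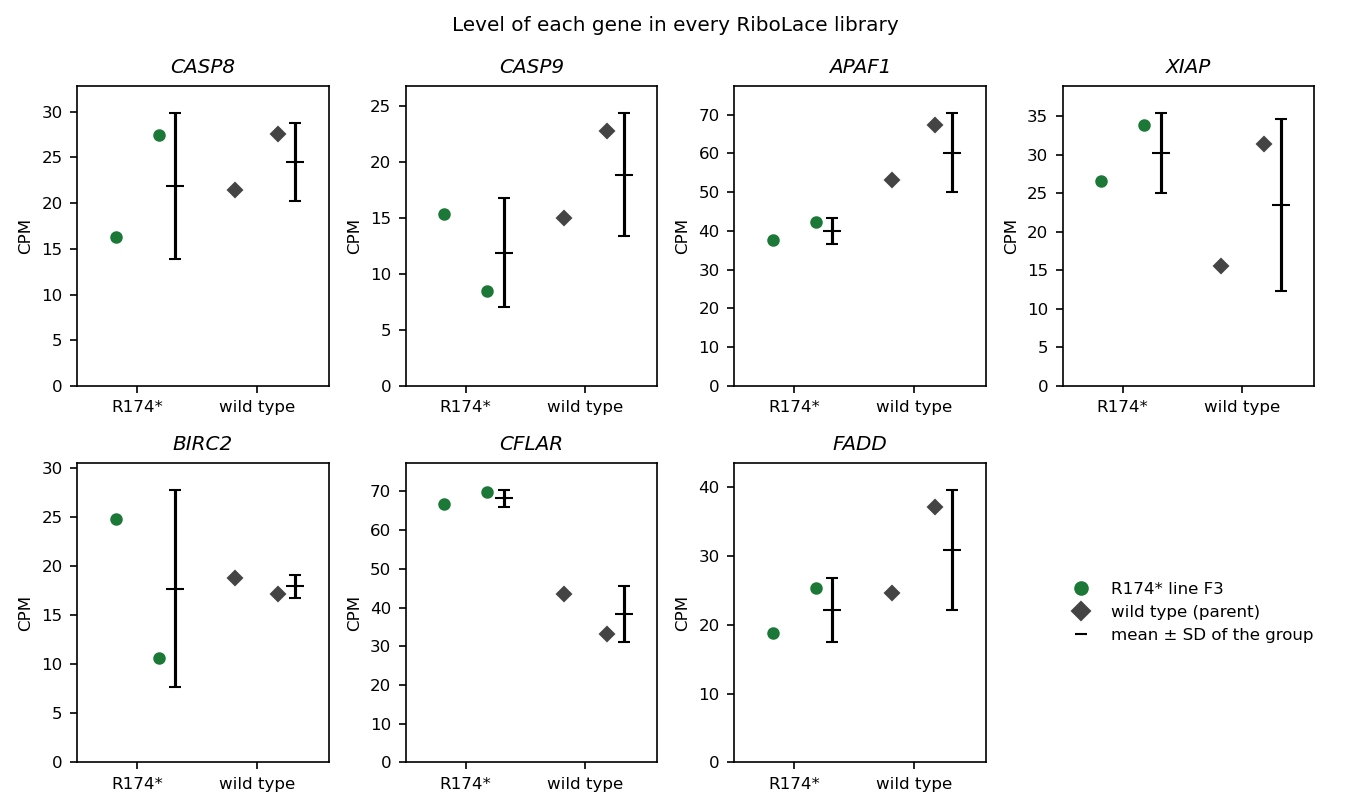
Level of each of the 7 genes in every RiboLace library, in CPM (linear axis from 0), for R174* line F3 and wild-type cells. Points are libraries and the black mark is the mean ± SD of the group. CFLAR is higher and APAF1 lower in both mutant libraries, and the other 5 genes overlap between the genotypes.

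Set against total RNA of the same cells, FADD made up a larger share of the ribosome-bound RNA in both genotypes. CPM were scaled within each assay, whereas the log2 ratios came from a joint fit of both assays. RiboLace gave 18.8 and 25.4 CPM of FADD, against 6.38 and 6.63 CPM in total RNA of line F3, a log2 ratio of 1.79 ± 0.38 (SE, n = 2 each, edgeR adjusted p = 0.000471). In wild-type cells it gave 24.65 and 37.0 CPM, against 14.0 and 9.001 CPM in total RNA, a log2 ratio of 1.52 ± 0.27 (SE, n = 2 each, edgeR adjusted p = 6.27e-05). Of the 15338 genes tested, 49.2% were called in F3, 26.5% as higher, and 48.3% in wild-type cells, 27.3% as higher. The 7 genes had 2 calls in each, all of them higher. The other call in wild-type cells was APAF1, at 0.67 ± 0.18 (edgeR adjusted p = 0.00458), which was lost without wild-type RiboLace replicate 2 (0.50, 0.0559). The other call in F3 was CFLAR, at 0.65 ± 0.19 (edgeR adjusted p = 0.00712), which was lost without mutant RiboLace replicate 1 (0.122) and stood at -0.31 (0.149) with the GC and length trend removed. XIAP in wild-type cells, at -0.34 ± 0.24 (0.255), passed without wild-type RiboLace replicate 2 (-0.83, 0.0143) and with the trend removed (-0.69, 0.0148). The F3 total RNA libraries were treated controls and the RiboLace ones untreated, and RiboLace libraries held 74.5% to 77.9% of their reads in protein-coding genes, against 97.8% to 98.3% in total RNA. The part of these differences in the ratios was not tested. A difference of the ratio between genotypes passed for none of the 7 genes in edgeR, where 1.49% of all genes were called. None of the 7 was at an unadjusted p under 0.05, beside 16.6% of all genes, and none was called in DESeq2, beside 4.13%. The widest 95% intervals of that difference reached from -1.66 for CASP9 to 1.12 for FADD. The interval of CASP9 left out 0 (-1.66 to -0.00596) though its unadjusted edgeR p was 0.0613, since intervals use a normal approximation.

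Ratios of reads within a library set partners of the pathway against each other, and they were chosen after values had been seen. CFLAR had 3.14 and 2.72 reads per CASP8 read in G7 and 1.82 and 1.835 in F3 after HHT, against 2.13 and 1.74 in G7 and 1.88 and 1.69 in F3 controls, and 1.48 and 1.38 in wild-type cells. After HHT the ratio was high in G7, and all mutant libraries lay above the wild-type ones. BIRC2 had 1.43 to 1.54 reads per CASP8 read after HHT, 0.960 to 1.06 in controls and 0.958 to 1.00 in wild-type cells. XIAP had 2.30 to 2.72 reads per CASP9 read after HHT, 1.57 to 1.97 in controls and 2.097 to 2.152 in wild-type cells. For both of these pairs every HHT library lay above every control library. How often other pairs of genes separate the groups in this way was not tested. The ratios use reads with no GC or length trend removed, and GC content was 39.0% for XIAP and 52.8% for CASP9. With that trend removed, the fold changes of XIAP and CASP9 given above were close to each other, while that of BIRC2 stayed above that of CASP8. In RiboLace, CFLAR had 4.105 and 2.54 reads per CASP8 read in mutant cells, against 2.025 and 1.21 in wild-type cells. There BIRC2 had 1.53 and 0.385 reads per CASP8 read in mutant cells, against 0.875 and 0.621 in wild-type cells, and these overlapped. XIAP had 1.72 and 4 reads per CASP9 read in mutant cells, against 1.04 and 1.375 in wild-type cells, the second mutant value resting on 4 CASP9 reads. FADD had 0.282 and 0.364 reads per CFLAR read in mutant cells, against 0.568 and 1.11 in wild-type cells. In total RNA FADD had 0.0569 and 0.0699 reads per CFLAR read in G7 and 0.367 and 0.380 in F3 after HHT, against 0.203 and 0.0756 in G7 and 0.130 and 0.150 in F3 controls, and 0.378 and 0.240 in wild-type cells.

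The order of the genes by level depended on the length used. Per kb of all annotated exons, BIRC2 averaged 12.9 ± 0.718 CPM per kb after HHT and 6.01 ± 0.2255 in controls (SD, n = 4 each), the highest mean of the 7 in both groups. CFLAR averaged 4.12 ± 0.927 CPM per kb after HHT and 2.22 ± 0.212 in controls, and in controls it was the lowest. Per kb of the principal transcript, CASP8 was highest in both groups, at 24.2 ± 1.47 CPM per kb after HHT and 16.5 ± 0.986 in controls, since its principal transcript has 1629 bp of 7243 bp of exons. By exon length, ranges of neighbours overlapped everywhere after HHT except between CASP8 and APAF1, and everywhere in controls except between CASP9 and CFLAR. FADD, with a single length of 1841 bp by either measure, averaged 9.51 ± 6.58 CPM per kb after HHT and 3.83 ± 1.69 in controls.

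The protein-coding genes most like each member over the 10 total RNA libraries were ranked by Pearson's r of log2(CPM + 1) among 8894 genes. For BIRC2 they were ZNF24 (r = 0.999), ZFR and VAMP4, and for CASP8 they were CAB39 (0.998), EREG and TGS1. CFLAR was most like ZNF37A (0.993), ZNF8 and TTC13, XIAP most like KIF5B (0.986), RSF1 and USP47, and CASP9 most like LASP1 (0.971), GOLGA2 and EPS15L1. FADD was most like ZNF787 (0.982), SNF8 and MRPL41. The longest coding transcripts of ZNF787 and MRPL41 had 70.3% and 71.95% GC, and that of SNF8 had 51.2%. Replicate 4 minus 3 of the G7 controls was -0.413 for ZNF787, -0.372 for SNF8, -0.4695 for MRPL41 and -1.34 for FADD (log2). The part of GC content in this likeness was not tested. APAF1 was most like CCR1 (0.956), MAP2K1 and FANCI. CCR1, a chemokine receptor gene, shared the line pattern of APAF1, with 16.3 and 18.03 CPM in G7 and 72.8 and 72.5 CPM in F3 after HHT, against 10.3 and 8.32 CPM in G7 and 49.4 and 48.7 CPM in F3 controls. The libraries share lines and treatment, so these values describe likeness in 10 libraries only.

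The genes around these 7 in the pathway were read from lists of 56 further genes, of which 48 were tested for HHT. Of these, 23 were higher and 16 lower after HHT, beside 39.9% higher and 39.3% lower of all genes tested. CASP10, the neighbour of CASP8 and CFLAR, rose by 0.64 ± 0.078 on the log2 scale (SE, n = 4 each, edgeR adjusted p = 3.56e-06). Of 4 other IAPs tested 3 rose and none fell. BIRC3 (cIAP2), beside BIRC2 on the chromosome, was at 5.15 to 6.67 CPM after HHT, against 1.34 to 2.39 CPM in controls, a log2 fold change of 1.74 ± 0.16 (edgeR adjusted p = 2.02e-07), and BIRC6 and BIRC5 rose by 0.89 ± 0.085 and 0.28 ± 0.070. BIRC5 was not called in G7 alone (0.14, adjusted p = 0.219) and was at 0.41 in F3 alone (6.46e-05).

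The 6 genes of IAP antagonists and apoptosome partners had 3 higher and 3 lower. CYCS, the cytochrome c that binds APAF1, rose by 0.94 ± 0.075 on the log2 scale (edgeR adjusted p = 4.1e-08), and DIABLO, an antagonist of XIAP, by 0.80 ± 0.15 (0.000277), while HTRA2, a mitochondrial protease that also binds IAPs, was at -0.84 ± 0.076 (1.49e-07). Of 7 death receptor genes 3 rose and 2 fell. TNFRSF10B, a TRAIL receptor, was at 111 to 157 CPM after HHT, against 47.9 to 83.4 CPM in controls, and TNFRSF10D, a decoy receptor, was at 5.08 to 5.965 CPM after HHT, against 17.2 to 19.35 CPM in controls. Their log2 fold changes were 0.97 ± 0.082 and -1.80 ± 0.097 (edgeR adjusted p = 7.8e-08 and 6.56e-10). FAS rose by 0.55 ± 0.12 (0.000821), a call lost with the GC and length trend removed (0.18, adjusted p = 0.169).

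Of 3 death ligand genes tested, TNF and TNFSF15 rose and TNFSF10 (TRAIL) fell. TNF was at 50.2 to 59.9 CPM after HHT, against 3.975 to 10.8 CPM in controls, a log2 fold change of 3.02 ± 0.19 (edgeR adjusted p = 3.29e-09). TNFSF15 was at 1.093 CPM or less in every library of both groups. Of 14 genes of the receptor complex 9 rose and 3 fell, with RIPK1, the kinase that binds FADD and is a target of BIRC2, at 51.1 to 59.0 CPM after HHT, against 18.8 to 20.75 CPM in controls. RIPK1 rose by 1.51 ± 0.073 (edgeR adjusted p = 2.25e-10), CYLD, a deubiquitinase of that complex, by 1.72 ± 0.077 (1.05e-10) and TRAF2, which binds BIRC2, by 1.17 ± 0.071 (2.29e-09). Of 7 genes of caspase substrates none rose and 5 fell. PARP1 was at 64.3 to 74.3 CPM after HHT, against 461.4 to 487.5 CPM in controls, a log2 fold change of -2.78 ± 0.064 (edgeR adjusted p = 3.91e-13), and GSDMD and DFFA were at -1.48 ± 0.091 and -0.44 ± 0.056.

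**Figure D5:**
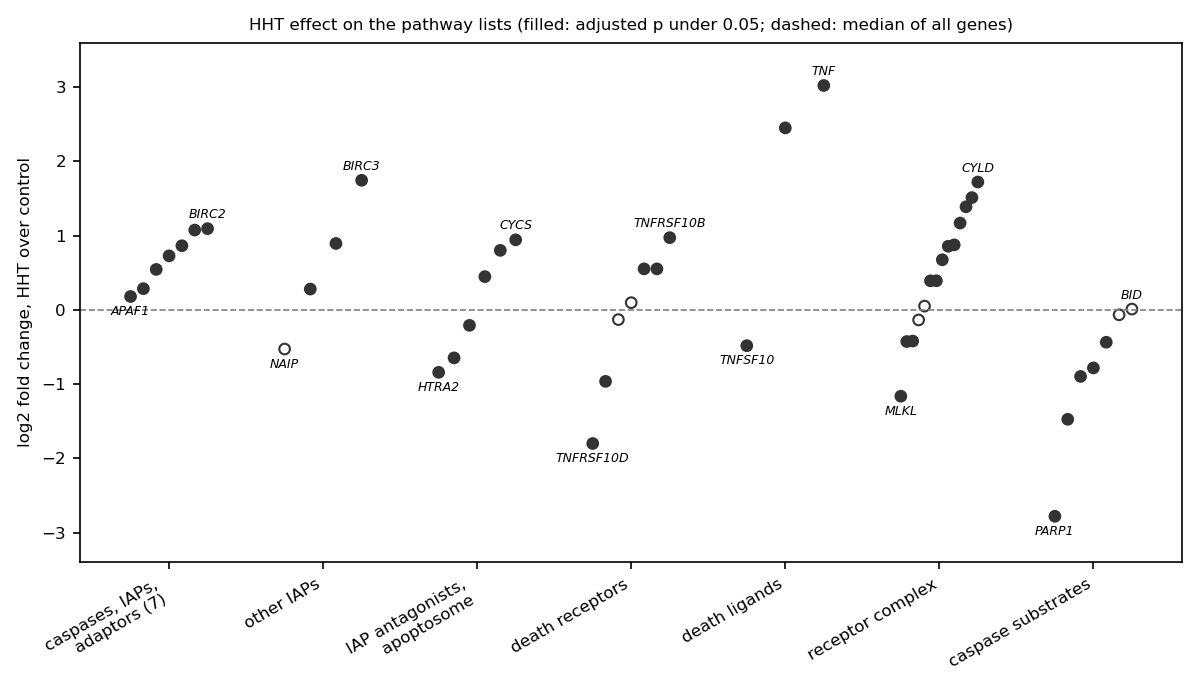
Log2 fold change, HHT over control, of the 7 genes and of the tested genes in the further pathway lists named on the axis. Filled points passed edgeR at an adjusted p under 0.05, open points did not, and the dashed line is the median of all genes. The 7 genes lie between 0.18 and 1.09, TNF is highest at 3.02 and PARP1 lowest at -2.78.

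Between the lines, 2 of 49 further genes differed in their HHT response, beside 3.8% of all genes. They were TNF (1.12 higher in G7, edgeR adjusted p = 0.00883) and the receptor gene TNFRSF21 (-0.88, 0.00121). With the replicate block 11 differed, where 14.9% of all genes were called. In total RNA, R174* against wild type, 1 of 47 further genes tested passed, beside 4.56% of all genes. That gene was XAF1, an antagonist of XIAP. It was at 14.7 and 13.5 CPM in G7 and 27.9 and 20.2 CPM in F3, against 7.53 and 8.65 CPM in wild-type cells. Its log2 difference was 1.23 ± 0.29 (SE, n = 4 and 2, edgeR adjusted p = 0.0465), and the call was lost without wild-type replicate 1 (0.349) or 2 (0.208) and without control replicate 2 (0.0643). In RiboLace 1 of 35 passed, beside 11.8% of all genes. That gene was TNF, at 29.9 and 23.3 CPM in mutant cells, against 69.1 and 68.3 CPM in wild-type cells. Its log2 difference was -1.32 ± 0.32 (SE, n = 2 each, edgeR adjusted p = 0.00801), and the call was lost without mutant replicate 2 (0.0971) and with the GC and length trend removed (0.0591). Against total RNA, 16 of 47 further genes were called in wild-type RiboLace (7 higher, 9 lower, beside 27.3% and 21% of all genes). In F3 it was 19 of 47 (5 higher, 14 lower, beside 26.5% and 22.7% of all genes), with BIRC6 higher in both, by 2.05 and 2.15 on the log2 scale.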

How the data were processed

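The authors deposited 1 table of raw read counts per gene ID and library, with STAR 2.6.0b, DESeq2 and GRCh38 named in the submitters' processing notes. The sources used here do not give the counter, annotation release or strand setting. Gene names came from GENCODE 29, which matched 57433 of 58037 IDs. Genes were tested with edgeR 4.0.16 (R 4.3.3, filterByExpr, TMM scaling, quasi-likelihood F-test), with p-values adjusted by Benjamini-Hochberg over all genes tested, called at an adjusted p under 0.05, and DESeq2 1.42.0 was the alternative. HHT was fitted with line as a covariate. The fits were also run on simulated counts with the same spread for every gene and no line effect or GC trend. Those settings differ from these data, so that run checked the code alone.

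Groups came from the labels. Members, gene lists and tests were chosen with earlier results of these data known. Named pathway genes are the 3 of each list with the smallest adjusted p among those called, and some items are not reported here. The low-count filter for HHT was first set by group and line and then, after its output was seen, by treatment group. The replicate numbers in the titles were used to pair HHT with control libraries, an assumption. Deviations of same-numbered libraries from the group means correlated at 0.481 to 0.633, but the numbers also follow line in both groups. Within lines the correlation was 0.3 in F3 and 0.517 in G7. With 2 libraries per line and group, their deviations mirror each other, so each line gives a single value. The descriptions number the libraries differently, so the pairing is not established. Replicate pairs differed beyond sampling noise (2.95 to 11.3 units of chi-square per degree of freedom). Alternatives were other scalings, no filter, DESeq2, each library left out, the block and single lines. Protein-coding genes only, and removal of each library's trend along GC content and length of the longest coding transcript (also with the block), were added after seeing the data. Intervals cover the spread between libraries only.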

Additional observations from a re-analysis of the deposited data

Results flagged for a closer look

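In mutant controls 3 of the 4 CASP8 libraries lay within 26.14 to 26.15 CPM and the other, G7 replicate 4, stood at 29.4 CPM, so that the gap was 0.9959 of the range of the group, above Dixon's critical value for 4 samples. This was the only case among 14 groups tested, at a level that chance passes in about 1 of 20 groups. Each group mixes libraries of F3 and G7, so Dixon's value serves here as a flag only. The cause of the gap was not tested. The CASP8 fold change after HHT was 0.50 to 0.60 on the log2 scale over all omissions of 1 library.

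The HHT response of FADD differed between the lines, at -2.191 on the log2 scale (G7 minus F3, edgeR adjusted p = 0.00478). FADD was at 6.43 and 7.62 CPM in G7 and 27.3 and 28.6 CPM in F3 after HHT, against 11.3 and 3.87 CPM in G7 and 6.38 and 6.63 CPM in F3 controls. The cause was not tested.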

How the results depend on the processing

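The calls after HHT of CASP8, XIAP, BIRC2 and CFLAR held under every alternative run, and those of APAF1, CASP9 and FADD did not, with 5 to 7 members called when 1 library was left out, 6 with RLE factors, among protein-coding genes or with the GC and length trend removed, 5 in DESeq2 and 7 with the block or with the filter by group and line (11239 genes called, 10793 as reported). HHT values changed sign for APAF1 with the GC and length trend removed, without the block (-0.0637) and with it (-0.06324), and for FADD in G7 alone (-0.09834). The G7 minus F3 response had 0 members called in DESeq2, 4 with the replicate block, 3 with block and trend removal, and 0 to 2 without 1 library. BIRC2 in that response was -0.0319 with the trend removed, -0.03185 with the block as well, and -0.08553 to 0.1261 without 1 library. It had 548 genes called, but 823 without the filter, 1090 with the trend removed, 2153 with the block, 2012 with both, and 178 to 1089 without 1 library.

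For R174* in total RNA, 3 members were called without the filter, 1 in DESeq2, 1 with the replicate block, and 2 in F3 alone and 2 in G7 alone. Of all genes, 1655 of 27575 were called without the filter, 1111 of 13949 in DESeq2 and 2652 of 13949 with the block. In F3 alone 3080 of 13565 genes were called, and in G7 alone 2059 of 13671. CASP8 was -0.004129 with the block, -0.004541 in F3 alone and -0.02184 to 0.1019 without 1 library. XIAP was 0.03046, 0.03129 and -0.04538 to 0.04637, and BIRC2 -0.00947 to 0.1785. The 636 genes called became 1655 without the filter, 1111 in DESeq2, 2652 with the block, 3080 in F3 alone, 2059 in G7 alone, 958 with the trend removed and 43 to 649 without 1 library. F3 against wild type had 1 member called without the filter, 1 with the trend removed and 0 to 2 without 1 library. There CASP8 was 0.003607, 0.009207 and -0.06385 to 0.06027, and XIAP was -0.06336 with the trend removed and -0.004336 to 0.07005 without 1 library, with 948 to 3250 genes called (2518 as reported). G7 against wild type without 1 library gave -0.02273 to 0.1649 for BIRC2, -0.006667 to 0.1613 for CASP8 and -0.1872 to 0.07393 for XIAP. G7 against F3 gave BIRC2 0.003432 with library totals, and without 1 library -0.08906 to 0.03609 for BIRC2, -0.000923 to 0.1647 for CASP8, -0.7508 to 0.7983 for FADD and -0.2173 to 0.04153 for XIAP, with 1 to 2 members and 847 to 2278 genes called (1743 as reported, 2880 with the trend removed).

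For R174* in RiboLace, 1 member was called with the trend removed, where XIAP was -0.07756, and without 1 library XIAP was -0.1069 to 0.8884, BIRC2 -0.7679 to 0.4556 and CASP8 -0.5675 to 0.186. The 1154 genes called became 415 in DESeq2, 518 with the trend removed and 247 to 1811 without 1 library. RiboLace against total RNA in F3 gave, with the trend removed, APAF1 -0.06341, CASP8 0.1591 and CFLAR -0.3057. XIAP there was 0.1104 with RLE factors, 0.1232 in DESeq2, 0.0151 with the block, 0.1005 among protein-coding genes and -0.1277 to 0.1821 without 1 library, and CASP8 -0.5763 to 0.14, with 1 to 2 members and 4679 to 7885 genes called (7548 as reported, 4909 with the trend removed). In wild-type cells CASP8 was -0.1202 with library totals, -0.09666 without the filter and -0.1449 to 0.156 without 1 library, CFLAR -0.333 with the trend removed, where 4 members were called, and -0.08492 to 0.3611 without 1 library, and XIAP -0.8302 to 0.1203. Of the 11808 genes tested there with the trend removed, 2934 were called higher and 2579 lower. The genotype difference of the ratio was -0.03257 for BIRC2 with the trend removed, and without 1 library -0.956 to 0.3197 for BIRC2, -0.5852 to 0.1264 for CASP8, -0.05409 to 0.5847 for FADD and -0.1708 to 0.7799 for XIAP. The 229 genes called became 151 with library totals, 527 without the filter, 634 in DESeq2, 361 among protein-coding genes, 431 with the trend removed and 24 to 1497 without 1 library.

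The median of all genes moved by -0.143 with library totals in wild-type RiboLace against total RNA, by 0.114 with RLE factors and 0.133 in DESeq2 for F3, and by 0.131 with library totals for the ratio, where the share of higher calls was 47.7% in place of 32.3%. No pairing by number is known for the RiboLace libraries (correlations of 0.00445 and -0.122). In R174* total RNA, mutant and wild-type libraries share only a number. Blocked values of RiboLace and of R174* in total RNA are therefore given without a reading. In RiboLace the block left none of the 7 genes called between the genotypes, and 4 to 99 reads per gene and library limit what these libraries can show. Of the further pathway genes, the response had 2 called, 11 with the block and 9 with block and trend removal. Of all genes 3.8%, 14.9% and 16.9% were called there. F3 against wild type had 9, and 16 with the trend removed. G7 against F3 had 9 and 14, and G7 against wild type had 13, and 8 in DESeq2. As reported, 18.1%, 12.5% and 17.7% of all genes were called in these comparisons, in that order. In F3 against wild type with the trend removed, 1873 genes were higher and 1766 lower of 11718 tested. Without the filter, 1428 were higher and 1196 lower of 27575 there. R174* in total RNA had 1, but 8 without the filter, 5 in DESeq2 and 8 with the block. It had 9 in F3 alone, 10 in G7 alone and 5 with the trend removed. Of all genes 4.56% were called as reported there, and 7.96% in DESeq2. R174* in RiboLace had 1, and 2 with the block, and the ratio had 0, but 1 without the filter and 1 in DESeq2. As reported, 11.8% of all genes were called in RiboLace and 1.49% for the ratio, the latter with 4.13% in DESeq2. For R174* in RiboLace with the trend removed, 207 genes were higher and 311 lower of 8866 tested. Under each alternative named for the further genes, the number of all genes called moved in the same direction. A lone library left by an omission is assumed to vary like the other groups, and the cause of these changes was not tested.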
